A study of Homo sapiens with 6 samples.

Results

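The Notch genes described here are 9 of the 58735 gene rows in the deposited table. They are the receptors NOTCH1, NOTCH2 and NOTCH3, the ligands JAG1 and JAG2, the target gene HES1, and the gamma-secretase subunits PSENEN, NCSTN and APH1A. They were chosen by name, with earlier results of these data known, and each gene ID was found through GENCODE release 29. All 9 passed the low-count filter. The cells were HCT116, an established human colorectal carcinoma line labelled as colon adenocarcinoma cells. The 3 control libraries came from cells of genotype WT that carried a lentiviral empty Vector, and the other 3 came from cells with SETD8 overexpression. SETD8 is a histone lysine methyltransferase whose gene is now called KMT5A. Both groups went through puromycin selection per the treatment label, which speaks of stable clones without saying how many, while the design text speaks of plasmid transfection. Poly(A)-selected RNA was sequenced with a strand-marking kit. The title of the series concerns the loss of YAP protein after its methylation by SETD8, and the comparison asks which transcripts differ with SETD8.

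Notch receptors are single-pass membrane proteins that are activated by ligands of the Jagged and Delta families on a neighbouring cell. Ligand binding exposes the receptor to an ADAM protease and then to gamma-secretase, an intramembrane protease built from a presenilin, nicastrin, an APH1 protein and PEN-2. The released intracellular domain enters the nucleus, joins the DNA-binding protein RBPJ and a Mastermind coactivator, and switches on genes such as HES1. In the intestine, Notch signalling is known for keeping progenitor cells from taking a secretory fate.

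Upstream sequences are shown for 2 members: HES1, because it is the pathway's end point among the 9 genes, and PSENEN, because it had the largest difference between groups and shares its upstream region with another gene. Both come from RefSeq (GRCh38.p14) and run 5′ to 3′ on the plus strand, and each ends at the base before the RefSeq start of the gene. For PSENEN, GENCODE 29 places the first base of the gene further upstream, at 35745114. Capitals mark TGGGAA, the core letters of the RBPJ motif, searched on both strands. The HES1 window is chr3:194135898-194136147 and the PSENEN window is chr19:35745419-35745650, which fills the space up to the start of U2AF1L4 on the opposite strand.
HES1: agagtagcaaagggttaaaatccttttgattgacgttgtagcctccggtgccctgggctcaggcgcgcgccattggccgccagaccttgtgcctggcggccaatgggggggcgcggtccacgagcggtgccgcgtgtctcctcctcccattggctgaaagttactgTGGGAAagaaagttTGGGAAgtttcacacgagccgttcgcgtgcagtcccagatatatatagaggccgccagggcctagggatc
PSENEN: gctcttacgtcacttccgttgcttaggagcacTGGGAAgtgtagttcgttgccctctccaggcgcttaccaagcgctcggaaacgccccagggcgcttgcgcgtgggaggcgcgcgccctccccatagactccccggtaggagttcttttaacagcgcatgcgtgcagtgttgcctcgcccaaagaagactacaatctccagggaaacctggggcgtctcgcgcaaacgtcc
The HES1 window holds TGGGAA at 2 places on the plus strand, which end 79 and 65 bases before the start. The PSENEN window holds it at 1 place, ending 195 bases before the start. In the 250 bases before their starts the other 7 members hold it nowhere. Over all 35116 RefSeq windows of 250 bases, 20.8% hold the letters at least once and 2.9% at least 2 times. GGAATG, the core letters of the motif of TEAD factors, the DNA-binding partners of YAP, was found on the minus strand before APH1A and in none of the other 8 windows, against 11.9% of all windows. The search treated the motifs separately, and they can share letters. These matches are letters only.

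The 6 libraries held 17056672 to 20471843 counted reads, and 14370 genes were tested. KMT5A stood at 45.9, 47.3 and 53.9 CPM (read counts scaled to library size after TMM normalisation) in Vector replicates 1, 2 and 3 and at 65.4, 66.2 and 75.5 CPM in SETD8 replicates 1, 2 and 3 (log2 fold change 0.49, SE 0.10, edgeR adjusted p = 0.0156). Without Vector replicate 2 this call was lost (edgeR adjusted p = 0.0965), and likewise without SETD8 replicate 1, 2 or 3 (0.0661, 0.0579 and 0.0949). The Vector libraries were not alike. The counts of Vector replicate 1 differed less from the 3 SETD8 libraries (chi-square per gene 11.7 to 13.5) than from Vector replicates 2 and 3 (14.2 and 34.4). Vector replicates 2 and 3 differed from each other by 18, and Vector replicate 3 was the farthest from the SETD8 libraries (46.3 to 54.5). The labels do not name separate cultures for the replicates, so the spread behind every p-value is that of these 6 samples and may be technical. Mitochondrial transcripts took 5.95% to 7.77% of Vector counts and 4.91% to 5.36% of SETD8 counts. Of 12 colon epithelial markers, KRT8, KRT18, KRT19, EPCAM, CDH1 and CDX2 were well expressed, VIL1, CEACAM5 and GPA33 had means under 0.1 CPM, and CDX1 and LGR5 were at 0 in every library. The 12 summed to 10770 to 13290 CPM with Vector and 11260 to 12720 CPM with SETD8. The 10 secretory-cell markers summed to 14.4 to 17.5 CPM with Vector and 13.8 to 18.0 CPM with SETD8. Summed over 10 fibroblast markers, of which 5 were at 0 everywhere, the level was 4.85 to 7.32 CPM with Vector and 3.50 to 4.83 CPM with SETD8. The 8 endothelial markers summed to 1.40 to 2.65 and 1.11 to 2.07 CPM, and the 8 immune markers to 1.09 to 2.54 and 0.636 to 1.19 CPM. The part of these differences in the results was not tested. The samples were labelled as HCT116 cells, and PTPRC, CD3E, TYROBP, KDR, EMCN, COL1A2, DCN, PDGFRA, FAP and POSTN were at 0 in every library. Most of the fibroblast sum was COL1A1, with 4.52 to 6.22 CPM with Vector and 3.28 to 4.65 CPM with SETD8. COL1A1, VWF and CSF1R were the only fibroblast, endothelial and immune markers tested, and none passed. Bulk RNA cannot separate the number of cells of a type from RNA per cell. Whether cells other than HCT116 were present was not tested.

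Among the 9 members, PSENEN was higher and JAG1 was lower with SETD8, and the other 7 did not pass the test (edgeR quasi-likelihood test, two-sided, Benjamini-Hochberg adjusted p under 0.05 over all genes tested). That is 2 of 9 members called, where 7.83% of all tested genes were called, for members chosen with earlier results known. By direction it is 1 of 9 higher, where 3.08% of all tested genes were called higher, and 1 of 9 lower, where 4.75% were called lower. The ranges of the groups did not overlap for 4 of 9 members (JAG2, HES1, PSENEN and APH1A), against 30.3% of all tested genes. JAG2 was the 1 with SETD8 below Vector (15.9% of all tested genes), and the other 3 had SETD8 above (14.4%). The median log2 fold change of the members was -0.21, and that of all tested genes was 0.00050. The receptors and ligands had values below 0, PSENEN, APH1A and HES1 had values above 0, and NCSTN stood near 0. Log2 fold changes fell with exon length in these libraries: their median was 0.13 in the shortest class of tested genes and -0.11 in the longest, to which 5 of the 9 members belong, the receptors and ligands. The part of length in the members' values was not tested beyond the length correction given with them.

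**Figure D1:**
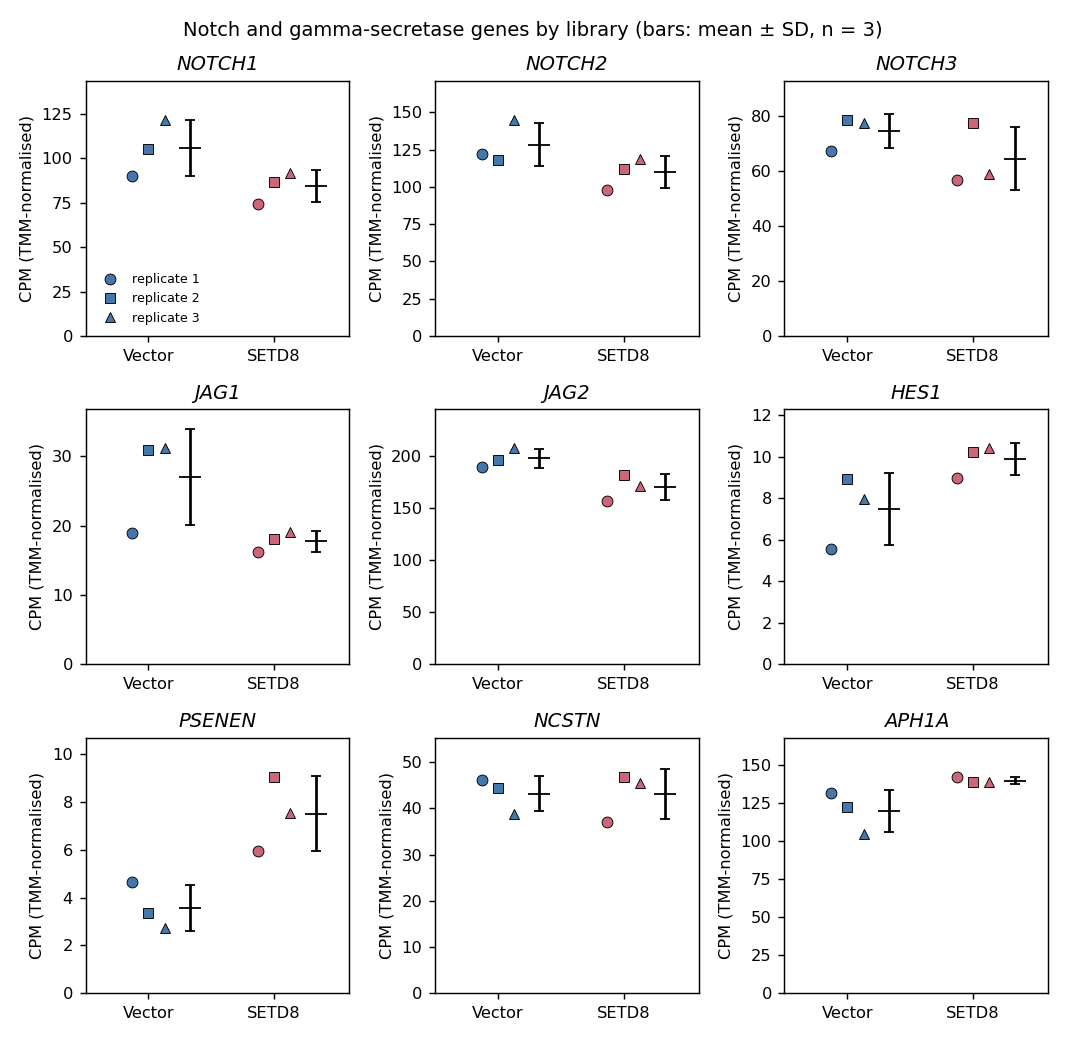
Normalised read counts (CPM, vertical axis from 0) of the 9 members in each library, with Vector in blue and SETD8 in red, circles, squares and triangles for replicates 1, 2 and 3, and bars for the mean ± SD (n = 3). PSENEN is higher in all 3 SETD8 libraries than in any Vector library, whereas JAG1 in Vector replicate 1 lies among the SETD8 values.

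The receptor genes were expressed in every library, and none of the 3 passed the test. NOTCH1, on chromosome 9 (136494433 to 136545786, minus strand, GRCh38), had 90.2, 105 and 122 CPM in Vector replicates 1, 2 and 3. In SETD8 replicates 1, 2 and 3 it had 74.2, 86.5 and 91.8 CPM. The lowest Vector value lay just under the highest SETD8 value, so the groups overlapped. Its log2 fold change of -0.33 had an SE of 0.12 and a 95% interval from -0.58 to -0.08, and did not pass (edgeR adjusted p = 0.0960). NOTCH1 passed without Vector replicate 1 (-0.43, edgeR adjusted p = 0.00362) and when every gene with counts was kept (-0.32, edgeR adjusted p = 0.0256). With the length correction, which removes each library's trend with exon length, NOTCH1 had -0.195 and did not pass (edgeR adjusted p = 0.212).

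NOTCH2, the receptor with the longest exon sequence of the 3, lies on chromosome 1 (119911553 to 120069626, minus strand). It had 122, 118 and 145 CPM with Vector and 98.3, 112 and 119 CPM with SETD8, in the order of the replicates. Only SETD8 replicate 3 reached into the Vector range. Its log2 fold change of -0.22 (SE 0.10) did not pass (edgeR adjusted p = 0.188), and became -0.03 once each library's trend with exon length was removed (edgeR adjusted p = 0.873). Its partial copy NOTCH2NLA had 0.41 to 0.70 CPM over the 6 libraries and was not tested. Summing NOTCH2 with its listed copies left the log2 fold change at -0.22. NOTCH3, on chromosome 19 (15159038 to 15200981, minus strand), had 67.4, 78.5 and 77.5 CPM with Vector and 56.8, 77.5 and 59.0 CPM with SETD8. SETD8 replicate 2 lay at the level of the higher Vector libraries, and the other SETD8 libraries lay below all Vector libraries. The log2 fold change of NOTCH3 was -0.21 (SE 0.12, edgeR adjusted p = 0.289), ranging from -0.36 to -0.12 when single libraries were left out. It was -0.10 with the length correction (edgeR adjusted p = 0.612).

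The receptors kept similar proportions in both groups. Per length of exon, NOTCH1 made up 39.4% ± 1.72 of the 3 receptor transcripts with Vector and 37.7% ± 2.02 with SETD8 (SD, n = 3 each). NOTCH2 made up 29.7% ± 2.01 and 30.4% ± 1.6, and NOTCH3 30.9% ± 1.94 and 31.8% ± 3.60. The ranges of the groups overlapped for each receptor, and no test was run on the shares.

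Of the ligands, JAG1 was lower with SETD8, and JAG2 did not pass. JAG1 encodes Jagged1 and lies on chromosome 20 (10637684 to 10673999, minus strand). It had 19.0, 31.0 and 31.2 CPM in Vector replicates 1, 2 and 3 and 16.2, 18.1 and 19.1 CPM in SETD8 replicates 1, 2 and 3. Vector replicates 2 and 3 were high, and Vector replicate 1 lay inside the SETD8 range. Means were 27.0 ± 6.99 and 17.8 ± 1.51 CPM (SD, n = 3 each), a log2 fold change of -0.60 (SE 0.17, 95% interval from -0.97 to -0.24), which passed with an edgeR adjusted p of 0.0477. The call was close to the threshold and was lost with library totals (edgeR adjusted p = 0.0607), limma-voom (adjusted p = 0.0694) and the length correction (-0.49, edgeR adjusted p = 0.0603). It was also lost without Vector replicates 2 and 3 (edgeR adjusted p = 0.216 and 0.0992) and without SETD8 replicates 1, 2 and 3 (0.187, 0.136 and 0.125), while without Vector replicate 1 the value was -0.81 (edgeR adjusted p = 1.08e-04).

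JAG2, the other Jagged ligand gene, lies on chromosome 14 (105140981 to 105168824, minus strand). It had 189, 197 and 207 CPM with Vector and 157, 182 and 171 CPM with SETD8. Every Vector library lay above every SETD8 library, but the gap was narrow. JAG2 had a log2 fold change of -0.22 (SE 0.09, 95% interval from -0.40 to -0.03) and did not pass (edgeR adjusted p = 0.130). It passed without Vector replicate 1 (-0.25, edgeR adjusted p = 0.0469), and had -0.17 with the length correction (edgeR adjusted p = 0.179). Per length of exon, JAG2 stood at 14.5, 9.22 and 9.67 times JAG1 in Vector replicates 1, 2 and 3 and at 14.2, 14.6 and 13 times in SETD8 replicates 1, 2 and 3. Vector replicate 1 thus had the ratio of the SETD8 libraries, and Vector replicates 2 and 3 a lower one.

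Within gamma-secretase, PSENEN was higher with SETD8, while NCSTN and APH1A did not pass. PSENEN encodes PEN-2, the small subunit needed for presenilin to mature, and lies on chromosome 19 (35745114 to 35747519, plus strand). It had 4.63, 3.34 and 2.71 CPM (85, 67 and 47 counts) in Vector replicates 1, 2 and 3. In SETD8 replicates 1, 2 and 3 it had 5.93, 9.06 and 7.56 CPM (112, 175 and 130 counts). The groups did not overlap, and the nearest libraries were Vector replicate 1 and SETD8 replicate 1. Means were 3.56 ± 0.98 and 7.52 ± 1.56 CPM (SD, n = 3 each), which is 2.11-fold. On the log2 scale PSENEN rose by 1.08 (SE 0.23, 95% interval from 0.57 to 1.58), with an edgeR adjusted p of 0.0184, and by 0.91 with the length correction (edgeR adjusted p = 0.0181). Leaving out Vector replicate 2 ended the call (edgeR adjusted p = 0.107), as did leaving out SETD8 replicate 1, 2 or 3 (0.0535, 0.0921 and 0.0834), with values of 0.92 to 1.30 over the 6 libraries left out in turn.

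PSENEN is also the member whose reads are hardest to assign. Of its 1845 exon bases, 1042 (56.5%) are covered by exons of other genes on either strand in GENCODE 29. These genes are U2AF1L4, a splicing factor gene that starts on the opposite strand, and AD000671.1, AD000671.2 and AD000671.3. U2AF1L4 had 0.38, 0.40 and 0.29 CPM with Vector and 0.37, 0.93 and 0.47 CPM with SETD8, and it was not tested. The AD000671 genes had at most 3 counts in any library. The sources used here do not give how reads on more than 1 gene were counted or whether strand was used, so the level of PSENEN is uncertain. For the other members the share of exon bases covered by other genes was 14.1% for APH1A, 7.33% for JAG2, 3.09% for NCSTN, 0.85% for JAG1 and 0% for HES1 and the receptors.

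NCSTN encodes nicastrin, the large glycosylated subunit, and lies on chromosome 1 (160343272 to 160358952, plus strand). It had 46.1, 44.5 and 38.9 CPM with Vector and 37.0, 46.9 and 45.6 CPM with SETD8. The ranges nearly coincided. NCSTN had a log2 fold change of -0.0012 (SE 0.12) with an edgeR adjusted p of 0.996, and its 95% interval ran from -0.25 to 0.25. With the length correction the log2 fold change of NCSTN was -0.03 (edgeR adjusted p = 0.890). Its sign turned under 8 of the alternatives tried, so no direction is given. COPA, a coat protein gene that starts 128 bases away on the other strand, had 298, 335 and 357 CPM with Vector and 276, 274 and 285 CPM with SETD8 (log2 fold change -0.24, edgeR adjusted p = 0.102).

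APH1A encodes the main APH1 scaffold subunit and lies on chromosome 1 (150265399 to 150269580, minus strand). It had 131, 122 and 104 CPM with Vector and 142, 138 and 139 CPM with SETD8. All SETD8 libraries were above all Vector libraries and close to each other. APH1A had a log2 fold change of 0.23 (SE 0.09, 95% interval from 0.02 to 0.43) and did not pass (edgeR adjusted p = 0.150). It passed without Vector replicate 1 (0.30, edgeR adjusted p = 0.0241), and had 0.17 with the length correction (edgeR adjusted p = 0.209). Outside the 9 members, PSEN2, which encodes a catalytic subunit, had a log2 fold change of 0.03 and did not pass (edgeR adjusted p = 0.890). APH1B, the lesser APH1 gene, had 1.90 ± 0.85 CPM with Vector and 1.45 ± 0.53 CPM with SETD8 (SD, n = 3 each).

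**Figure D2:**
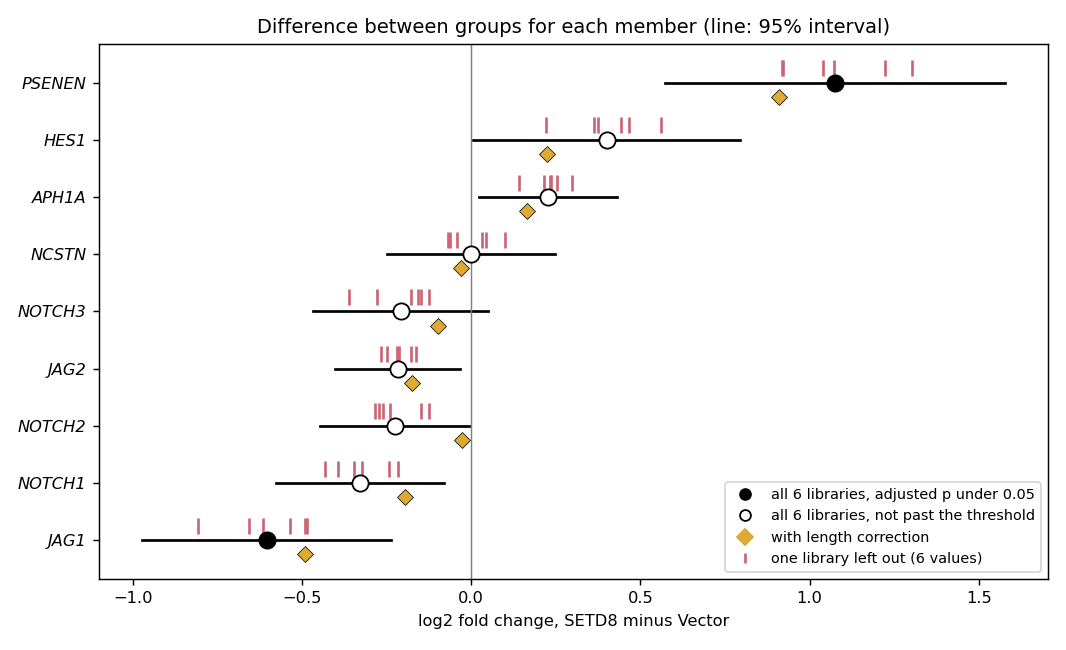
Log2 fold change (SETD8 minus Vector) of each member with its 95% interval, filled where the edgeR adjusted p was under 0.05. Diamonds show the value with the length correction and red ticks the 6 values with 1 library left out. PSENEN (1.08) and JAG1 (-0.60) are filled, and the NCSTN ticks lie on both sides of 0.

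The subunits form a complex with 1 copy of each, so their transcripts were set side by side per length of exon. PSENEN stood at 0.227, 0.170 and 0.158 times NCSTN in Vector replicates 1, 2 and 3 and at 0.363, 0.438 and 0.375 times in SETD8 replicates 1, 2 and 3. The ratio was higher in every SETD8 library. APH1A stood at 3.42, 3.31 and 3.22 times NCSTN with Vector and at 4.61, 3.55 and 3.65 times with SETD8. These ratios are given without a test, and those of PSENEN carry the uncertainty of its shared exons.

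HES1 encodes a basic helix-loop-helix repressor that Notch switches on and that represses its own gene. It lies on chromosome 3 (194136145 to 194138732, plus strand). It had 5.56, 8.93 and 7.95 CPM (102, 179 and 138 counts) with Vector and 9.01, 10.2 and 10.4 CPM (170, 198 and 179 counts) with SETD8. The groups did not overlap, but Vector replicate 2 and SETD8 replicate 1 differed by less than 0.1 CPM. HES1 had a log2 fold change of 0.40 (SE 0.18, 95% interval from 0.0057 to 0.79) and did not pass (edgeR adjusted p = 0.186). It was 0.22 without Vector replicate 1 (edgeR adjusted p = 0.364), the library with the lowest HES1, and 0.23 with the length correction (edgeR adjusted p = 0.499).

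Of the other HES and HEY genes, HES2, HES4, HES6 and HEYL were tested, and with NRARP, a feedback inhibitor gene of the pathway, none passed. NRARP had 18.6, 13.2 and 12.96 CPM with Vector and 18.6, 20.3 and 20.4 CPM with SETD8 (log2 fold change 0.41, edgeR adjusted p = 0.106). Vector replicate 1 lay at the level of the SETD8 libraries. HES4 had 90.6, 79.4 and 61.1 CPM with Vector and 96.7, 97.2 and 94.99 CPM with SETD8 (0.32, edgeR adjusted p = 0.113). HES6, HES2 and HEYL had log2 fold changes of 0.30, 0.21 and 0.14 (edgeR adjusted p = 0.132, 0.494 and 0.528). These genes were singled out after their values were seen, so nothing is read from their shared sign. HES5 was at 0 counts in every library, and HES7, HEY1 and HEY2 were too low to be tested.

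Per length of exon, APH1A and JAG2 stood highest among the members, and PSENEN and JAG1 lowest. The level, in counts per kilobase scaled to the same total in each library, was 115 ± 12 for APH1A and 89.1 ± 9.74 for JAG2 (SD over the 6 libraries, both groups together). NCSTN stood at 31.9 ± 2.83, NOTCH1 at 28.4 ± 5.44, NOTCH3 at 22.9 ± 3.57 and NOTCH2 at 22.0 ± 3.18. HES1 stood at 13.1 ± 2.86, PSENEN at 9.30 ± 4.22 and JAG1 at 7.48 ± 2.37. APH1A exceeded JAG2, and NCSTN exceeded NOTCH1, in 5 of 6 libraries. JAG2 exceeded NCSTN, NOTCH1 exceeded NOTCH3, NOTCH2 exceeded HES1 and HES1 exceeded PSENEN in 6 of 6 libraries. NOTCH3 exceeded NOTCH2 in 3 of 6 libraries, so these neighbours did not differ beyond their spread. For PSENEN and JAG1 the order differed between groups. With Vector, PSENEN stood at 5.88 ± 1.34 and JAG1 at 8.998 ± 2.64, and PSENEN was the higher of the pair in Vector replicate 1 only. With SETD8, PSENEN stood at 12.7 ± 2.77 and JAG1 at 5.97 ± 0.52 (SD, n = 3 each), and PSENEN was higher in all 3 libraries. The order depends on the length used: with the longest transcript of each gene, a choice made after seeing the data, NOTCH2 (32.4) stood above NOTCH1 (31.6) and JAG1 (11.7) above PSENEN (10.3).

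**Figure D3:**
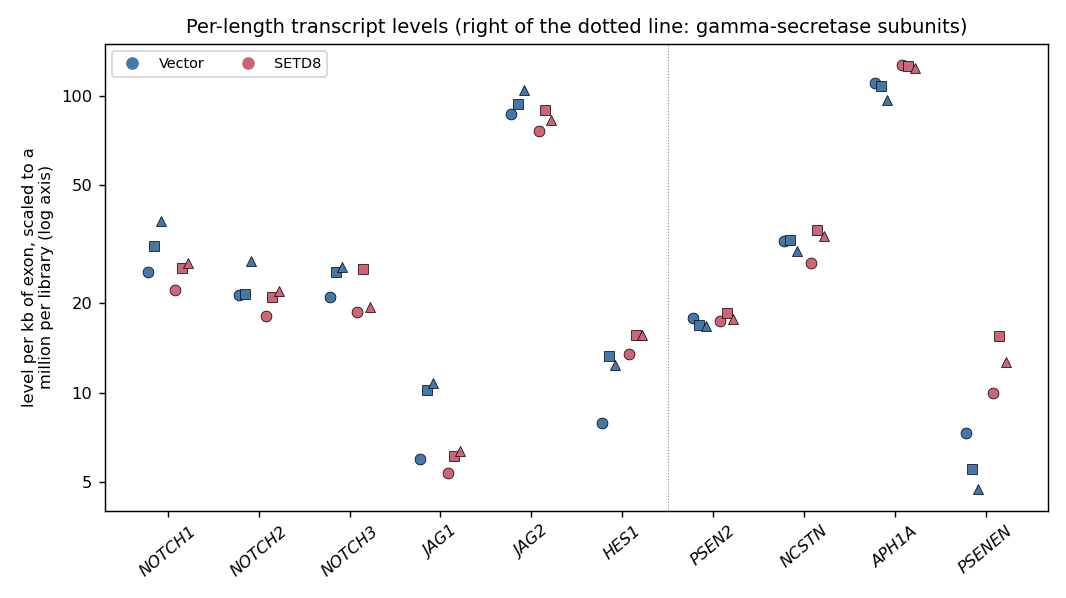
Per-length transcript levels on a log axis (counts per kilobase of exon, scaled to the same total in each library) of the 9 members and PSEN2, with Vector in blue and SETD8 in red and circles, squares and triangles for replicates 1, 2 and 3. APH1A and JAG2 lie above 75 in every library, and PSENEN lies between 4.74 and 15.5.

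The wider pathway list held 71 further genes, of which 63 were tested. Of these, 2 were higher and 4 lower with SETD8 (3.17% and 6.35%), near the shares of 3.08% and 4.75% over all tested genes, and 57 did not pass. The list was drawn up with earlier results of these data known. In the role of receptor trafficking and turnover, 2 of 10 tested genes fell and 0 rose. ITCH encodes a ubiquitin ligase that acts on Notch and had 88.6, 105 and 118 CPM with Vector and 78.9, 70.2 and 74.2 CPM with SETD8. All SETD8 values lay below all Vector values (log2 fold change -0.48, SE 0.11, edgeR adjusted p = 0.0204). DTX4, a Deltex ubiquitin ligase gene, fell from 16.6 ± 0.94 to 11.7 ± 0.95 CPM (SD, n = 3 each; -0.51, edgeR adjusted p = 0.0328).

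Among RBPJ corepressor genes, 1 of 14 tested rose and 1 fell, where 3.08% and 4.75% of all tested genes were called higher and lower. L3MBTL3, which encodes a reader of methylated lysine that binds RBPJ, had 3.49, 4.49 and 4.26 CPM with Vector and 7.36, 8.28 and 8.201 CPM with SETD8. The groups lay far apart relative to their spread (log2 fold change 0.96, SE 0.18, edgeR adjusted p = 0.0111). NCOR1, a nuclear corepressor gene, had 21.0, 29.3 and 37.2 CPM with Vector and 20.2, 18.7 and 18.6 CPM with SETD8 (-0.60, edgeR adjusted p = 0.0468). Its Vector replicate 1 lay within 1 CPM of a SETD8 library, and the call was lost with library totals, limma-voom and the length correction (adjusted p = 0.0604, 0.0678 and 0.0680). SPEN, the central RBPJ corepressor gene, had a log2 fold change of -0.41 and RITA1, which encodes an RBPJ export factor, one of 0.42 (edgeR adjusted p = 0.0595 and 0.0651).

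Among the other Notch targets, 1 of 10 tested genes rose and 1 fell, against 3.08% and 4.75% of all tested genes. ID1, a helix-loop-helix inhibitor gene that BMP signalling also controls, averaged 131 ± 12.1 CPM with Vector and 182 ± 20.7 CPM with SETD8 (SD, n = 3 each), a rise of 0.47 on the log2 scale (edgeR adjusted p = 0.0186). With the length correction it was 0.27 and did not pass (edgeR adjusted p = 0.144). The 3 tested genes of this role not named here had log2 fold changes from -0.12 to 0.19 and did not pass. SOX9, a progenitor transcription factor gene that Wnt signalling also controls, fell from 149 ± 16.8 to 110 ± 7.06 CPM (SD, n = 3 each; -0.44, edgeR adjusted p = 0.0206). All 6 calls in the pathway list were lost without Vector replicate 2 and without SETD8 replicates 1 and 2 (edgeR adjusted p of 0.0601 to 0.165, 0.0556 to 0.133 and 0.0572 to 0.149). Without SETD8 replicate 3, 5 were lost (0.0632 to 0.165), and without Vector replicate 3 only that of NCOR1 (0.0906). Without Vector replicate 1, 19 of 63 pathway genes were called, where 3509 of all 14715 tested genes were called.

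No tested gene passed in the other 7 roles. FURIN, which encodes the protease that cuts the receptor precursor, came nearest, with 245, 253 and 255 CPM with Vector and 176, 229 and 192 CPM with SETD8 (log2 fold change -0.34, edgeR adjusted p = 0.0535). It passed with DESeq2 (adjusted p = 0.0273), with the length correction (edgeR adjusted p = 0.0311), with the GC correction (0.0478), when every gene with counts was kept (0.0122) and without Vector replicate 1 or 3 (0.0135 and 0.0412). It also passed with the replicate block (edgeR adjusted p = 0.0433) and with the block and the length correction together (0.0309). FURIN did not pass with limma-voom (adjusted p = 0.0506). Nor did it with library totals (edgeR adjusted p = 0.0815), DESeq2-type size factors (0.0548) or the stricter filter (0.0502). Without Vector replicate 2 it did not pass (edgeR adjusted p = 0.192), and likewise without SETD8 replicate 1, 2 or 3 (0.241, 0.0561 and 0.206). POFUT1, which adds fucose to Notch, had -0.10, the ligand ubiquitin ligase gene MIB2 0.03, and the acetyltransferase gene KAT2A -0.03 (edgeR adjusted p = 0.492, 0.863 and 0.875). NOTCH4 had 1.27 ± 0.25 CPM with Vector and 0.82 ± 0.22 CPM with SETD8 (-0.62, edgeR adjusted p = 0.326). The Delta ligand gene DLL1 had 1.57 ± 0.51 and 1.85 ± 0.45 CPM (0.24, edgeR adjusted p = 0.691), and DLL3 was at 0 counts in every library, where 3 counts would be 0.15 to 0.174 CPM. RBPJ itself had 52.0 ± 6.63 CPM with Vector and 53.2 ± 4.001 CPM with SETD8 (0.03, 95% interval -0.20 to 0.27, edgeR adjusted p = 0.876), and is named for its place in the pathway.

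Gamma-secretase also cuts many membrane proteins other than Notch, and of 31 such substrate genes listed, 25 were tested. Of these, 8 fell (32%, against 4.75% of all tested genes) and 1 rose (4%, against 3.08%), with a median log2 fold change of -0.29. These genes are long: 20 of the 25 belong to the longest class of tested genes (at least 6284 exon bases). In that class 7.89% of genes were called lower, and the median log2 fold change was -0.11. Of the 20 substrate genes in it, 5 were called lower. The lower calls outside that class were EFNB1, NGFR and CDH1 (3314, 4150 and 6177 exon bases). With the length correction, 7 of 25 substrate genes were called lower and 1 higher, where 729 and 519 of all 14370 tested genes were. EFNB1, an ephrin gene, fell by 0.48 on the log2 scale, the amyloid precursor-like gene APLP2 by 0.41 and the E-cadherin gene CDH1 by 0.54 (edgeR adjusted p = 0.0117, 0.0161 and 0.0218).

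Larger falls among the substrates came at lower levels. LRP1, a large endocytic receptor gene, fell from 12 ± 3.49 to 6.23 ± 1.27 CPM, the neurotrophin receptor gene NGFR from 18.6 ± 4.36 to 10.1 ± 2.78 CPM and the ephrin receptor gene EPHA4 from 5.70 ± 2.40 to 2.40 ± 0.12 CPM (SD, n = 3 each). For EPHA4, Vector replicate 1 (2.94 CPM) lay near the SETD8 libraries. Their log2 fold changes were -0.94, -0.87 and -1.25 (edgeR adjusted p = 0.0233, 0.0268 and 0.0287). The call of EPHA4 was lost with limma-voom (adjusted p = 0.0690), and that of NGFR with the replicate block and length correction together (edgeR adjusted p = 0.0501). NRG1, which encodes an ERBB ligand, was the substrate gene that rose, from 4.81 ± 0.62 to 9.32 ± 0.94 CPM (0.95, edgeR adjusted p = 0.00979). SORL1, a sorting receptor gene outside the naming rule, also fell (-0.45, edgeR adjusted p = 0.0318). APP, the amyloid precursor gene, had -0.28 and did not pass (edgeR adjusted p = 0.0997). The number of substrate genes called was 0 without Vector replicate 2 and without SETD8 replicates 1 and 2, 1 without SETD8 replicate 3, 8 without Vector replicate 3 and 17 without Vector replicate 1. In the same order, 72, 11, 155, 129, 1093 and 3509 of all tested genes (14666 to 14776) were called. The list was also drawn up with earlier results known, and it shares CDH1 with the colon epithelial markers.

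**Figure D4:**
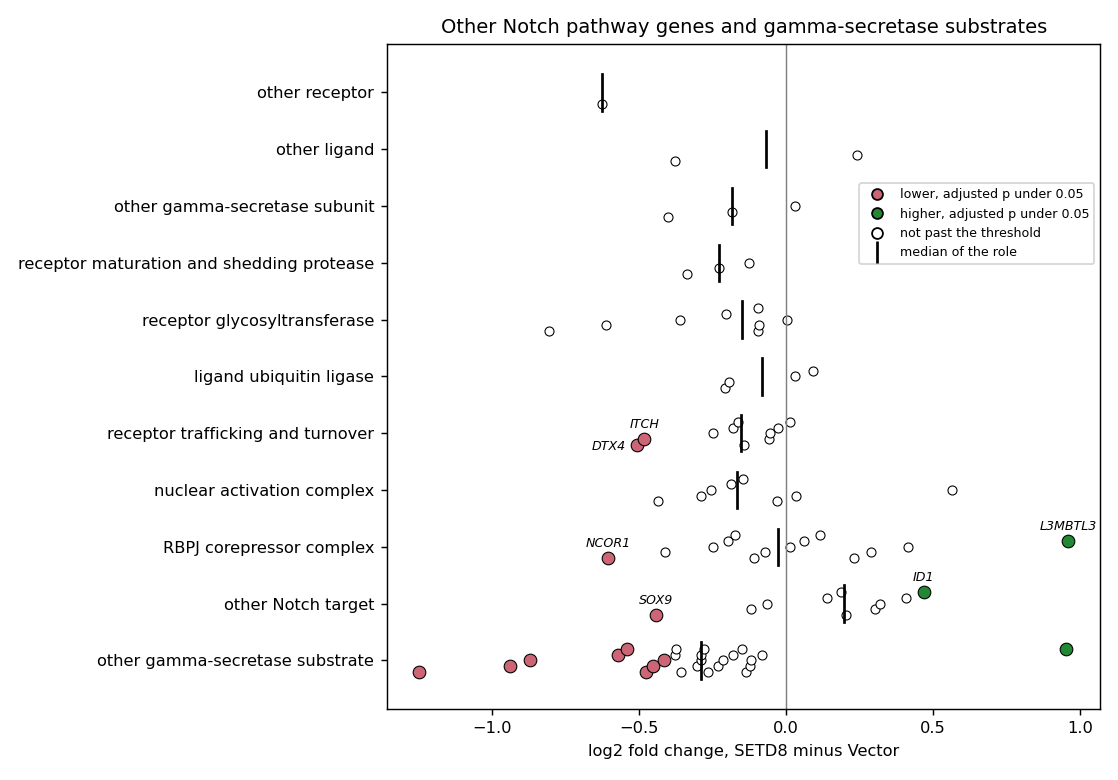
Log2 fold change (SETD8 minus Vector) of the 63 tested pathway genes outside the members, by role, and of the 25 tested gamma-secretase substrate genes in the lowest row. Filled points passed the test (red lower, green higher), open points did not, and bars mark the median of each role. The 8 red points of the substrate row stand against 1 green point.

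Across the 6 libraries the receptors and ligands varied in the same direction, but not all of them closely. Pearson's r of log2 CPM was 0.92 between NOTCH1 and NOTCH2, 0.93 between NOTCH1 and JAG1 and 0.91 between NOTCH1 and JAG2, while APH1A had r of -0.93 with NOTCH1. NOTCH2 had a lower r of 0.73 with JAG1. NOTCH3 had r of 0.69 with NOTCH1, 0.56 with NOTCH2, 0.70 with JAG1 and 0.855 with JAG2. HES1 had r of -0.14 with NOTCH1 and -0.08 with JAG1. These values describe 6 libraries that share the contrast between groups and the spread of the Vector libraries, and no p is given. Among 10162 other protein-coding genes with a mean of at least 5 CPM, the 3 most like NOTCH1 were ZNF57, PTPRK and PABIR2 (r = 0.99 each), and 115 genes had r above 0.95. The 3 most like PSENEN were MID1IP1 (r = 0.995), TIMM21 (0.994) and DSN1 (0.991), with 142 above 0.95. HES1 had fewer close matches, with 18 genes above 0.95, led by PDCD10 (r = 0.99), SLC30A5 and IFIT2 (r = 0.97 each).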

How the data were processed

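Messenger RNA of 6 HCT116 samples was measured. Per the labels' protocols, libraries were poly(A)-selected and prepared with a TruSeq Stranded mRNA kit. The authors deposited whole-number read counts per Ensembl gene, not normalized. Per the submitters' processing notes, the builds were GRCh38 and hg38 and the tools STAR, HISAT2, HTSeq and featureCounts. Their roles, the annotation and whether counting used strand were not given in the sources used here. Columns named NC were taken as the Vector group, the only group other than SETD8, and their number as the replicate. All 58735 IDs matched GENCODE 29, and 0 columns belonged to other samples.

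Genes were filtered with filterByExpr (14370 kept), scaled by TMM and compared in edgeR 4.0.16 under R 4.3.3 by the robust quasi-likelihood test, with Benjamini-Hochberg adjustment over all genes and a threshold of 0.05. The SE is the size of the log2 fold change over the root of F, and 95% intervals use edgeR's total degrees of freedom. Log CPM used a prior count of 2. Floors of 3 counts cover counting error only. Levels per length used union exon length. The test was run on simulated counts, drawn with the same mean per gene for every library of a group, scaled by library size. The simulated Vector libraries lacked the unlikeness seen here, so the simulation cannot check the test under it.

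The members, gene lists and tests were chosen with earlier results of these data known. Named genes were the 9 members, KMT5A, pathway genes under the threshold, the best expressed gene of each role without one, the first 8 substrates by adjusted p (of which 1 is not reported here), copies and overlapping genes, and the 3 genes most like NOTCH1, HES1 and PSENEN. Other genes were named after their values were seen, among them RBPJ, SPEN, RITA1, APH1B, DLL3, APP, NRARP and the HES and HEY genes. Alternatives were limma-voom (limma 3.58.1), DESeq2 1.42.0, its size factors within edgeR, library totals, no low-count filter, a filter at 1 CPM in each library of at least 1 group, a replicate block, length and GC corrections (lowess offsets, span 0.3), and leaving out each library. Figures used matplotlib 3.10.9.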

Additional observations from a re-analysis of the deposited data

How the results depend on the processing

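Of the 9 members, 2 were called. The count was 1 with library totals, limma-voom and the length correction, each of which lost JAG1, and 0 to 5 when single libraries were left out. The 6 pathway calls became 11 with no low-count filter and 10 with DESeq2, and 0 to 19 with single libraries left out. The 9 substrate calls ranged from 0 to 17 in the same way. Over all genes the 1125 calls became 2000 with no low-count filter and 11 to 3509 with single libraries left out, lowest without SETD8 replicate 1 and highest without Vector replicate 1. Library totals gave 792 higher and 505 lower genes, against 443 and 682. Same-numbered libraries did not deviate together (r = 0.02, 0.01 and -0.06), so the numbers were not taken as pairs, and not every library correlated best with its own number. With the replicate block, 3 members (NOTCH1 added, edgeR adjusted p = 0.0492), 9 pathway, 9 substrate and 1177 genes in all were called. With the replicate block and the length correction together, these were 2, 6, 7 and 1078.

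The sign of NCSTN turned to 0.0002 with DESeq2-type size factors and with DESeq2, 0.0443 with library totals, 0.0033 with no low-count filter and 0.0054 with the GC correction. With single libraries left out NCSTN ranged from -0.0674 to 0.1002, above 0 without Vector replicates 1 and 2 (0.0447 and 0.0311) and SETD8 replicate 1. PSEN2 turned to -0.0162 with the length correction and -0.0154 with the replicate block added to it, and ranged from -0.0165 (without Vector replicate 3) to 0.093. MIB2 ranged from -0.0432 (without Vector replicate 3) to 0.0897, and was -0.0063 without SETD8 replicate 1. KAT2A turned to 0.0124 with library totals and ranged from -0.1071 to 0.0183 (without SETD8 replicate 2). NALT1, an antisense gene near NOTCH1, had only 6 to 19 counts and did not pass (log2 fold change 0.31, SE 0.51, edgeR adjusted p = 0.740). It ranged from -0.0954 (without SETD8 replicate 2) to 0.5981. The cause of these turns was not tested. PSENEN, with 47 to 175 counts, and HES1, with 102 to 198, were the members with the least depth.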
